A study of Mus musculus with 16 samples.

Results

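Sphingosine-1-phosphate (S1P) is a lipid signal made from the sphingoid base sphingosine. The genes described here are 9 that make it, move it out of the cell, sense it or break it down: the kinases Sphk1 and Sphk2, the exporter Spns2, the receptors S1pr1, S1pr2, S1pr3 and S1pr5, the lyase Sgpl1 and the phosphatase Sgpp1. They were taken by symbol from a gene count table with 53801 genes, each matched 1 row, and all 9 passed the filter on low counts that left 21768 genes for testing. RNA was measured in 16 libraries of oligodendrocytes, the glia that make myelin, which were taken by magnetic cell sorting from the brains of male mice. The 4 groups of 4 were wild type (C57BL/6J Jcl) on a normal control diet (WT-NCD) or a high-fat diet (WT-HFD), and the knock-in App NL-G-F/NL-G-F on the same diets (App-NCD and App-HFD). These mice are homozygous for a change of the mouse App gene that humanises the amyloid-β sequence and carries the Swedish, Beyreuther/Iberian and Arctic mutations. Fat supplied 12.5% of energy in the control diet and 60.0% in the high-fat diet, which held 345.0 and 524 kcal in 100 g. Diets were given for 6 months from an age of 2 months, and mice were sampled at 8 months. Wild-type mice were purchased and knock-in mice were bred as a line of their own, so genotype and colony cannot be told apart. The labels number the libraries but do not say that each is 1 animal, so p-values measure the spread between these samples.

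S1P acts outside the cell on G protein-coupled receptors, and inside the cell it is the exit point of sphingolipid breakdown. The kinases phosphorylate sphingosine, Spns2 carries the product across the plasma membrane, and receptors on the same or a neighbouring cell respond to it. Sgpp1 turns S1P back into sphingosine, whereas Sgpl1 cleaves it irreversibly. In the brain, S1pr5 is known as the receptor of oligodendrocytes, S1pr1 as one of astrocytes and endothelium, and S1pr3 as one of astrocytes and vessel walls. Drugs that act on S1P receptors are used in multiple sclerosis.

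Each library held between 64538297 and 217925484 counts, and a single count was worth 0.00427 to 0.0284 CPM, the unit used below (counts scaled to the same library size after TMM scaling). The library App-NCD 553 stood apart. Of its counts, 39.4% came from mitochondrially encoded genes, against 1.22% to 4.62% in the other 15, and it had 18928 genes with a count against 27151 to 30617. Mature oligodendrocyte markers were present in every library, with a summed level of 14 genes of 30560 to 51740 CPM. Markers of other cells were present too: 12 homeostatic microglia genes summed to 2789 to 14450 CPM and 5 choroid plexus and ependyma genes to 7014 to 35970 CPM. The tests were therefore run with and without App-NCD 553, and the text says which applies.

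The data gave 2 main patterns among the 9 genes. Sgpl1, the lyase, was at about 100 CPM in wild type and close to 190 CPM in the knock-in on both diets, apart from App-NCD 553. Spns2, the exporter, was higher on the high-fat diet than on the control diet in both genotypes, and the control-diet knock-in libraries had the lowest values. Among the receptors, without App-NCD 553, mean S1pr2 was higher and mean S1pr1 and S1pr3 lower in the knock-in, and S1pr5, the oligodendrocyte receptor, overlapped between all groups. The kinases and Sgpp1 overlapped as well once App-NCD 553 was left out, except that the 3 remaining App-NCD libraries had Sgpp1 values just above those of WT-NCD. Here and below, overlap of groups was not examined over all genes, so no background share stands beside it.

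**Figure D1:**
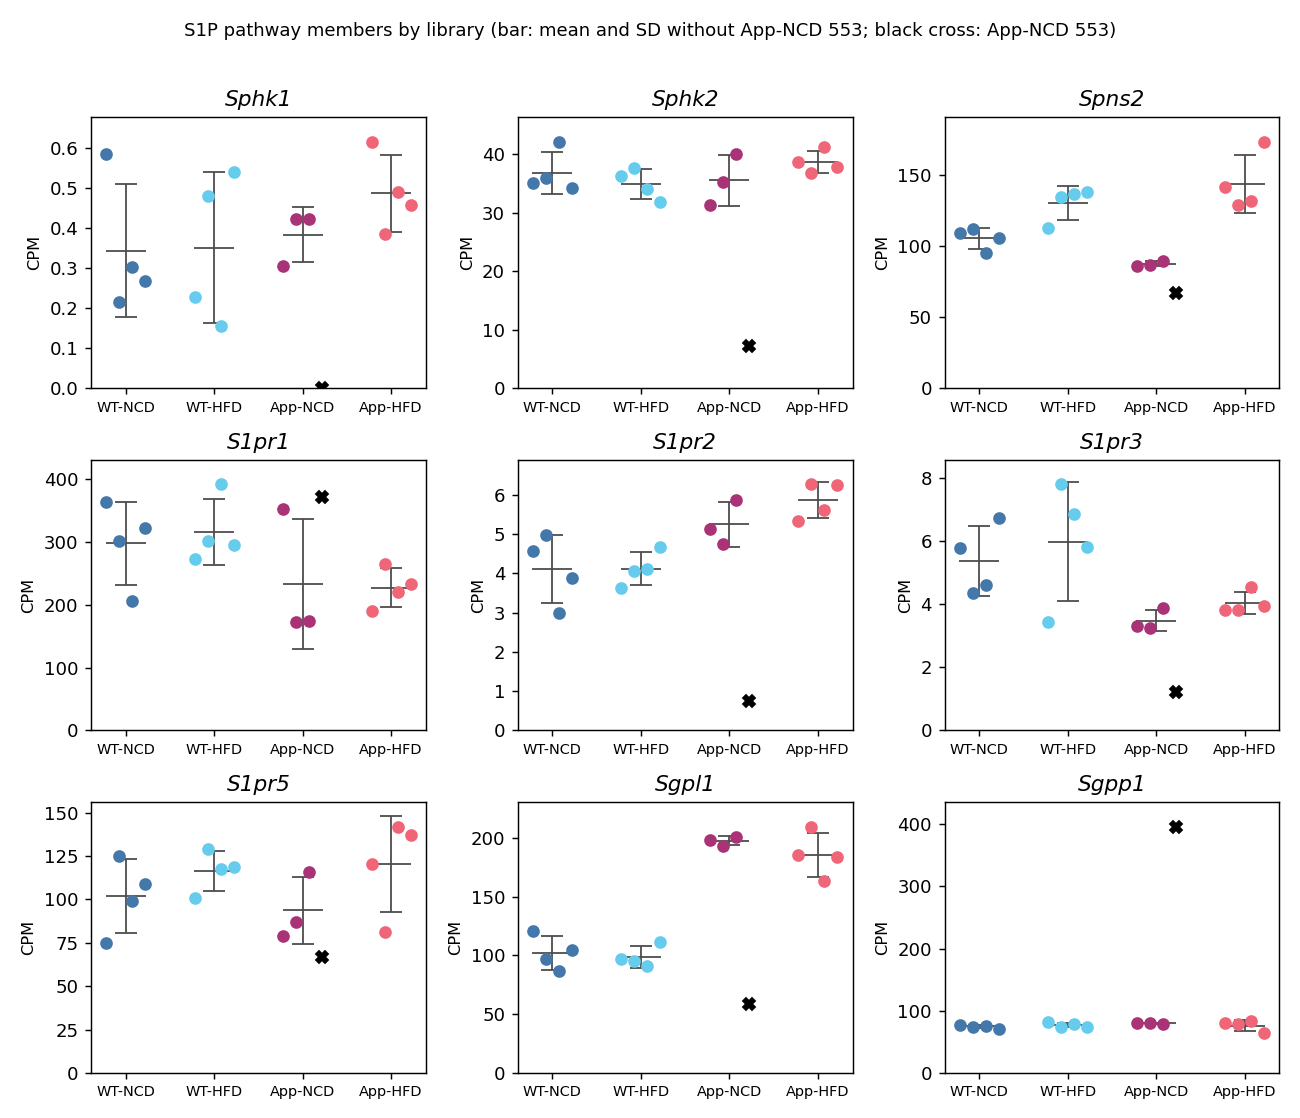
CPM of each of the 9 genes (vertical axes, linear, each from 0) in the 4 groups, with 1 point per library and a bar for the mean and SD without App-NCD 553, which is drawn as a black cross. Sgpl1 separates the genotypes, Spns2 separates the diets within each genotype, and the cross lies outside the other points for every gene except S1pr1.

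Compared per length of annotated exon, S1pr1 had the highest level of the 9 genes, with a median of 89.4 CPM per kb over the 15 libraries without App-NCD 553. S1pr5 followed at 46.3, Spns2 at 27.6, Sgpl1 at 19.7, Sgpp1 at 13.8 and Sphk2 at 8.72 CPM per kb. S1pr3 (0.975), S1pr2 (0.597) and Sphk1 (0.0883 CPM per kb) were far lower. Each gene was above the next in this order in 15 of 15 libraries, except that Spns2 was above Sgpl1 in 11 of 15. Of the summed level per kb of the 4 receptors, S1pr1 held 69.2% ± 7.21 in WT-NCD (SD, n = 4) and S1pr5 29.6% ± 7.22. In App-HFD these shares were 60% ± 7.94 and 38.6% ± 7.96, with ranges that overlapped those of WT-HFD, where S1pr1 held 64.7% to 72.4%. S1pr3 held at most 1.14% and S1pr2 at most 0.703% in any library.

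Differences between groups were tested with edgeR over all genes tested, and a gene was called when its Benjamini-Hochberg adjusted p was below 0.05. With all 16 libraries, edgeR called 0 of the 9 members for genotype on the control diet, where 8.39% of all genes were called, and 0 of 9 on the high-fat diet, where 7.14% were called. At an unadjusted p below 0.05 there were 4 and 1 members, beside 5721 and 3949 of all 21768 genes. DESeq2 called 2 (Spns2 and S1pr3) and 1 (Sgpl1), beside 3398 and 2508 of 21360 genes, and gave no adjusted p for Sgpp1. Without App-NCD 553, edgeR called 1 of 9 on the control diet (Sgpl1), against 17.5% of all genes, and 2 of 9 on the high-fat diet (Sgpl1 and S1pr2), against 19.3%. These shares are near the background, so the count of called members does not set the group apart. The median log2 fold change of the 9 members without App-NCD 553 was -0.08 on the control diet and 0.12 on the high-fat diet, beside -0.05 and -0.02 over all genes.

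For diet, edgeR called 0 members with 16 libraries and 0 without App-NCD 553 in wild type, in the knock-in and in the interaction, and in each of these comparisons 0% of all genes were called (0 of 21768 and 0 of 22322). Spns2 was among the members with an unadjusted edgeR p below 0.05 in all 3, and was the only one of them in wild type and in the interaction. Of all 21768 genes, 419 in wild type, 2586 in the knock-in and 639 in the interaction had such a p with 16 libraries. Without App-NCD 553 these were 1139, 1576 and 614 of 22322. DESeq2 called Spns2 for diet in the knock-in, with and without App-NCD 553, and no other member for diet or interaction. With 16 libraries, however, DESeq2 gave no adjusted p for Sgpp1 in any comparison.

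**Figure D2:**
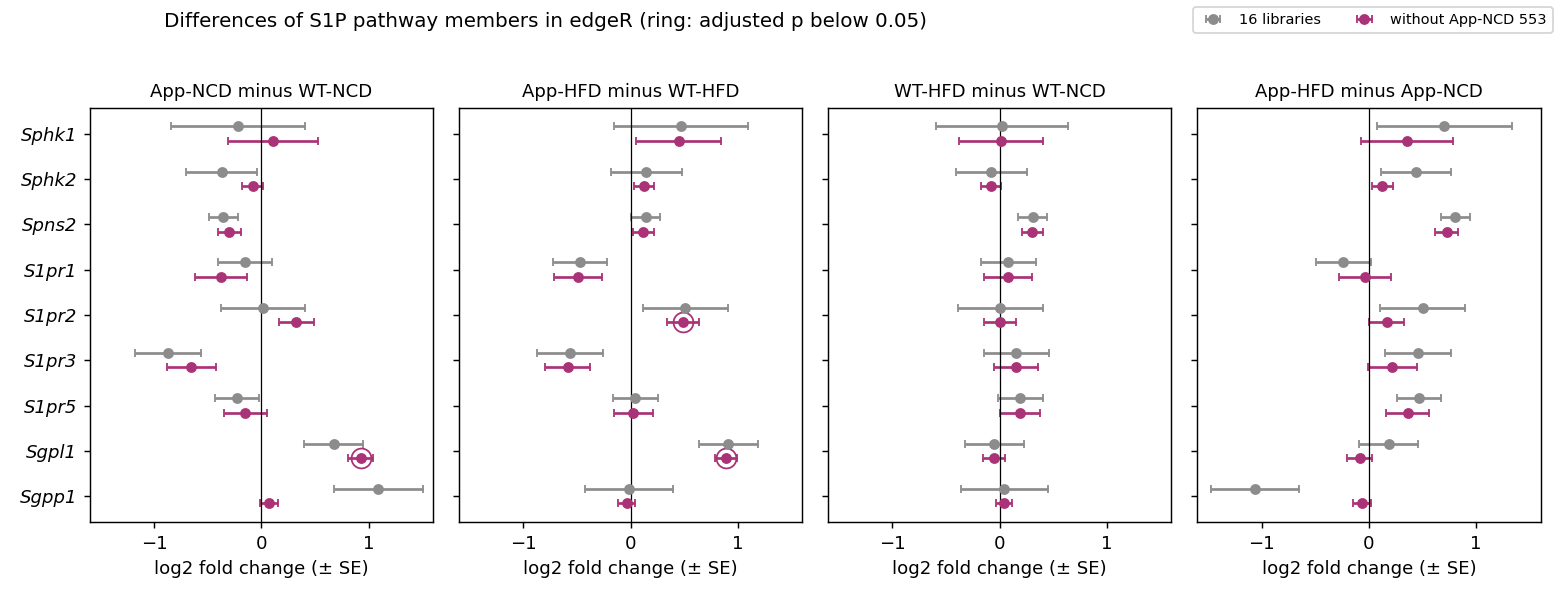
Log2 fold change with its SE (horizontal axes) of the 9 genes in 4 comparisons, from edgeR with all 16 libraries (grey) and without App-NCD 553 (purple); rings mark an adjusted p below 0.05. Rings appear only without App-NCD 553, at Sgpl1 on both diets and at S1pr2 on the high-fat diet, and Spns2 lies farthest to the right among the purple points of the App-HFD minus App-NCD panel.

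Sgpl1 encodes S1P lyase, the enzyme of the endoplasmic reticulum that ends sphingolipid breakdown by cleaving S1P. It is on the minus strand of mm10 chromosome 10, 61098642 to 61147703. In WT-NCD the libraries 4, 5, 11 and 12 had 121, 96.8, 86.5 and 104 CPM, and in WT-HFD the libraries 2, 3, 15 and 16 had 96.8, 95, 91.1 and 112 CPM. In App-HFD the libraries 547, 559, 560 and 561 had 186, 210, 163 and 184 CPM. In App-NCD the libraries 537, 538 and 545 had 199, 194 and 201 CPM, and 553 had 58.7 CPM. All App-HFD libraries were thus above all wild-type libraries, as were 3 of 4 App-NCD libraries, and the library 553 was below all wild-type libraries. Without it, Sgpl1 rose by 0.92 ± 0.113 on the log2 scale for control-diet mice (SE, 1.90-fold, edgeR adjusted p = 5.27e-05) and by 0.89 ± 0.106 for high-fat mice (1.85-fold, adjusted p = 3.57e-05). With all 16 libraries it was 0.68 ± 0.275 (adjusted p = 0.136) and 0.91 ± 0.276 (adjusted p = 0.0600). Diet made little difference to it: without App-NCD 553 the high-fat minus control difference was -0.05 ± 0.106 in wild type and -0.09 ± 0.114 in the knock-in on the log2 scale, neither called by edgeR (adjusted p = 0.984 and 0.944).

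Microglial genes moved with Sgpl1. Of 12 homeostatic microglia markers 10 rose in the knock-in on each diet without App-NCD 553, and with all 16 libraries 8 and 10, among them, without App-NCD 553, the complement gene C1qa (2.04 ± 0.277 and 2.201 ± 0.266 on the log2 scale) and the receptor Csf1r (0.98 ± 0.209 and 1.25 ± 0.198). Of 8 disease-associated microglia markers 8 rose on each diet. The summed homeostatic level was 3692 to 6149 CPM in WT-NCD, 2789 to 5221 in WT-HFD, 10950 to 13220 in App-NCD without 553 (7002 with it) and 8572 to 14450 in App-HFD. None of these 20 markers was at 0 throughout a group. Within groups the order of libraries agreed only in part: WT-NCD 4 and WT-HFD 16 were highest of their groups in both, but WT-NCD 11 had the lowest Sgpl1 of its group at a marker sum of 4128 CPM, above WT-NCD 5 and 12. App-HFD 561 had the lowest marker sum of its group and more Sgpl1 than App-HFD 560. Per 1000 CPM of summed homeostatic markers, Sgpl1 was at 23.6 ± 3.87 CPM in WT-NCD (SD, n = 4), 28.5 ± 5.33 in WT-HFD, 16.0 ± 1.84 in App-NCD without 553 (n = 3) and 16.3 ± 3.50 in App-HFD, so the knock-in means were lower. On the control diet the ranges did not overlap, at 19.67 to 27.54 in wild type and 14.74 to 18.14 in the knock-in without 553. On the high-fat diet they overlapped narrowly, at 21.41 to 32.68 and 13.89 to 21.45. Per 1000 CPM of disease-associated markers Sgpl1 was at 509 ± 92.3, 634 ± 126, 37.6 ± 1.88 and 42.8 ± 10.6 CPM in the same order of groups. The part of microglia in the Sgpl1 difference was not tested. In RNA of sorted cells, a change in the number of cells of a type and a change in RNA per cell cannot be told apart.

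Over the 15 libraries without App-NCD 553, the 3 genes whose log2 CPM followed Sgpl1 most closely of 14816 were H2-DMa (Pearson r = 0.993), which helps load peptides on MHC class II, Ly86 (r = 0.992), a partner of a Toll-like receptor relative on myeloid cells, and Ly9 (r = 0.992), a receptor of immune cells. Ly86 was at a mean of 50.3 CPM in WT-NCD and 367 CPM in App-NCD without 553. These correlations were picked as the highest of many genes and are a description; libraries of the same genotype share their level.

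Spns2 encodes the transporter that releases S1P from cells, and lies on the minus strand of chromosome 11, 72451638 to 72489904. WT-NCD libraries 4, 5, 11 and 12 had 109, 112, 95.1 and 106 CPM, and WT-HFD libraries 2, 3, 15 and 16 had 113, 135, 137 and 138 CPM. App-NCD libraries 537, 538, 545 and 553 had 86.2, 86.6, 89.3 and 67.1 CPM, and App-HFD libraries 547, 559, 560 and 561 had 142, 129, 131 and 173 CPM. All high-fat libraries were above the control-diet libraries of their genotype, by a narrow margin in wild type, and all App-NCD libraries were below all WT-NCD libraries. How many of all genes separate in this way was not counted. The 2 high-fat groups overlapped. In the knock-in, the diet difference was 0.81 ± 0.134 on the log2 scale (SE, 1.75-fold, edgeR adjusted p = 0.150), which placed Spns2 at rank 3 of 21768 genes by p. Without App-NCD 553 it was 0.73 ± 0.110 (1.65-fold, edgeR adjusted p = 0.0746), at rank 1 of 22322, in a comparison where edgeR called no gene. DESeq2 gave 0.78 (adjusted p = 5.42e-06) and, without App-NCD 553, 0.70 (adjusted p = 1.87e-06); it called 83 and 112 genes in all. In these fits Spns2 thus passed the threshold in DESeq2 and not in edgeR. With App-NCD 553 left out, edgeR called it when WT-HFD 2 or App-HFD 559 was left out as well, among 18 and 7 genes called in all.

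In wild type the diet difference of Spns2 was 0.31 ± 0.133 (edgeR adjusted p = 1), and 0.31 ± 0.100 (adjusted p = 0.744) without App-NCD 553. The difference between the 2 diet effects was 0.50 ± 0.188 (edgeR adjusted p = 0.851) with 16 libraries and 0.42 ± 0.148 (adjusted p = 1) without App-NCD 553, so a larger diet effect in the knock-in was not established over all genes. The genotype difference on the control diet was -0.36 ± 0.133 (edgeR adjusted p = 0.107), and -0.30 ± 0.109 (adjusted p = 0.0699) without App-NCD 553. Scaled to mature oligodendrocyte markers it was 0.04, and -0.03 without App-NCD 553, where that scaling put the median of all genes at 0.38 and 0.22. The diet difference in the knock-in was 0.51 and 0.58 with that scaling, with the median of all genes at -0.23 and -0.14.

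Neuronal markers, 8 genes, moved with Spns2: they summed to 56.3 to 67.2 CPM in WT-NCD, 80.8 to 96.6 in WT-HFD, 51.0 to 58.6 in App-NCD without 553 (24.8 in it) and 70.7 to 104.8 in App-HFD. The diets did not overlap in either genotype, as for Spns2, though edgeR called none of the 8 for diet, and no listed neuronal marker was at 0 throughout a group. Spns2 was also set beside oligodendrocyte and endothelial levels, since endothelium is a known source of S1P release. Per 1000 CPM of summed mature oligodendrocyte markers, Spns2 was at 2.495 ± 0.411 CPM in WT-NCD, 2.87 ± 0.179 in WT-HFD, 2.46 ± 0.325 in App-NCD without 553 (n = 3) and 3.37 ± 0.248 in App-HFD (SD, n = 4 elsewhere). The lowest App-HFD value, 3.12, was above the highest in App-NCD, 2.82. The 12 endothelial markers summed to 176 to 287 CPM in App-NCD, 250 to 298 in App-HFD, 219 to 422 in WT-NCD and 215 to 479 in WT-HFD. Per 1000 CPM of them, Spns2 was at 385 ± 94.9 CPM in App-NCD without 553 and 539 ± 110 in App-HFD, with ranges that overlapped. The part of any of these cell types in the Spns2 difference was not tested. The exons of Spns2 share 131 bases with the opposite-strand gene Mybbp1a, and whether counting used the strand is not given in the sources used here.

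The 3 genes most like Spns2 over the 15 libraries were 9530077C05Rik (r = 0.968), Mxd4 (r = 0.944), which encodes a MAX-binding repressor, and 5033406O09Rik (r = 0.941). All 3 had the same order of group means as Spns2. Mxd4 was at 193 CPM in WT-NCD, 260 in WT-HFD, 180 in App-NCD without 553 and 281 in App-HFD.

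S1pr1 encodes the Gi-coupled receptor that guides lymphocyte exit and vessel stability, and lies on the minus strand of chromosome 3, 115710433 to 115715072. WT-NCD libraries 4, 5, 11 and 12 had 362, 301, 206 and 321 CPM, and WT-HFD libraries 2, 3, 15 and 16 had 272, 301, 391 and 294 CPM. App-NCD libraries 537, 538, 545 and 553 had 353, 173, 173 and 371 CPM, and App-HFD libraries 547, 559, 560 and 561 had 190, 265, 220 and 232 CPM. On the high-fat diet every knock-in library was below every wild-type library. On the control diet App-NCD 538 and 545 were low and App-NCD 537 was high, as was 553, the library that stood apart. Between genotypes S1pr1 had -0.47 ± 0.255 for high-fat mice (SE, edgeR adjusted p = 0.370) and -0.16 ± 0.254 for control-diet mice (adjusted p = 0.721). Without App-NCD 553 these were -0.49 ± 0.223 (adjusted p = 0.145) and -0.38 ± 0.242 (adjusted p = 0.302). Over all fits, S1pr1 was called for high-fat mice in 1 of 23 with App-NCD 553 and 2 of 23 without it (lowest edgeR adjusted p = 0.0188). For control-diet mice it was called in 0 of 23 and 1 of 23 (lowest edgeR adjusted p = 0.0144).

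S1pr1 and astrocyte markers moved together from library to library, and so did S1pr1 and oligodendrocyte precursor markers. The 9 astrocyte markers summed to 1884 and 1889 CPM in App-NCD 538 and 545, the pair with the lowest S1pr1, and to 4043 CPM in App-NCD 537. Per 1000 CPM of these markers S1pr1 lay between 66.5 and 91.7 CPM in the 15 libraries, with means of 78.2 ± 5.31 in WT-NCD, 75.4 ± 5.39 in WT-HFD, 90.2 ± 2.59 in App-NCD (n = 3) and 74.4 ± 6.01 in App-HFD (SD, n = 4 elsewhere). On the high-fat diet the ranges of this ratio overlapped between genotypes, at 68.4 to 79.7 in wild type and 66.5 to 79.4 in the knock-in, unlike S1pr1 itself. On the control diet it was the reverse: the ratio ran from 70.8 to 83.4 in wild type and from 87.2 to 91.7 in the knock-in without App-NCD 553, which do not overlap, while S1pr1 itself overlapped. Without App-NCD 553, 4 of 9 astrocyte markers fell in the knock-in on the control diet, and 2 fell and 1 rose (Gfap) on the high-fat diet, beside 17.5% and 19.3% of all genes called. With all 16 libraries, 1 of these 9 markers fell on the control diet and 0 were called on the high-fat diet. None of the 9 was at 0 throughout a group, and their part in the S1pr1 values was not tested. The genes most like S1pr1 were Dmd (r = 0.976), Egfr (r = 0.975) and Slitrk2 (r = 0.973), which encode dystrophin, the EGF receptor and a membrane protein of synapses.

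**Figure D3:**
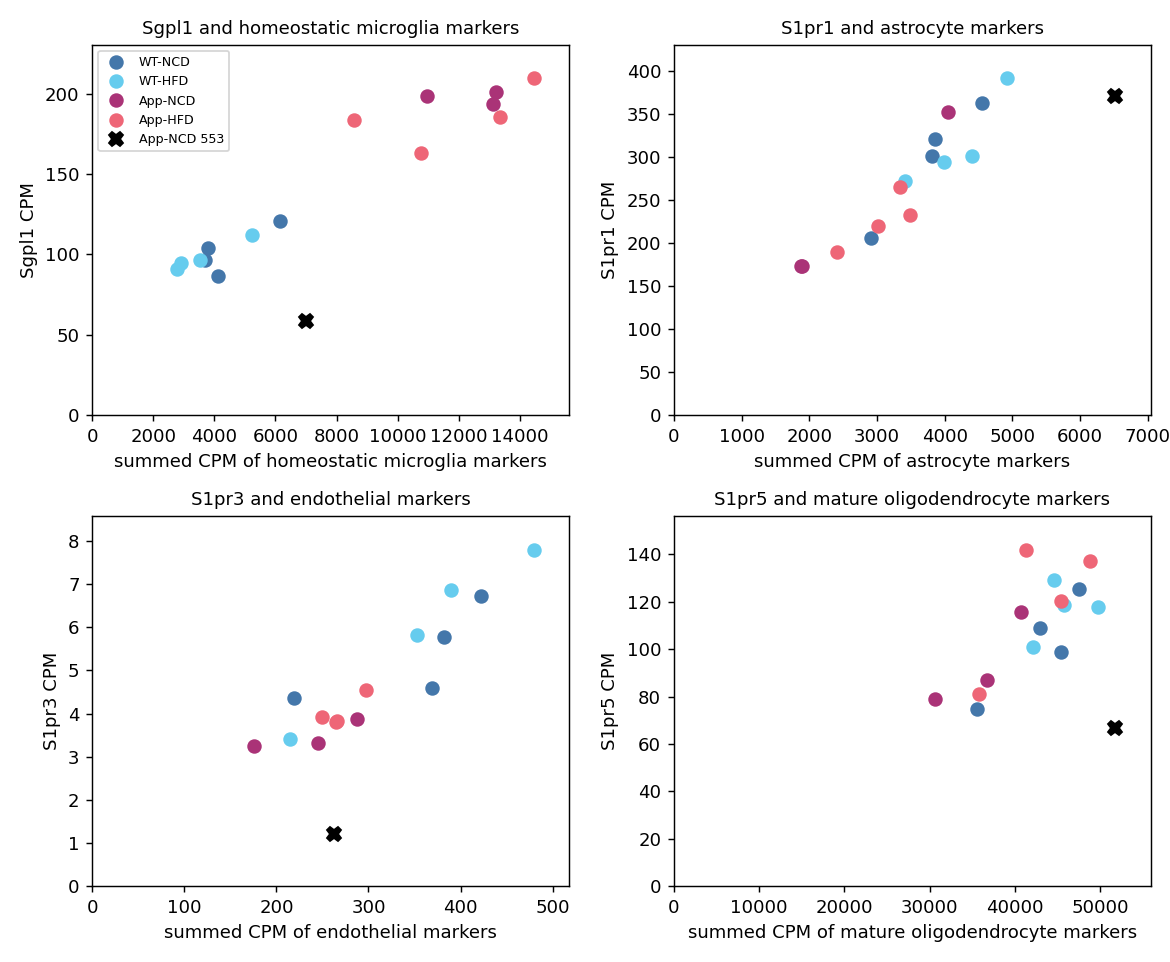
CPM of 4 members (vertical axes) against the summed CPM of a marker list (horizontal axes), 1 point per library, coloured by group, with App-NCD 553 as a black cross. S1pr1 rises with astrocyte markers across all groups, from 173 CPM at 1884 CPM of markers upward, and Sgpl1 and microglia markers form a wild-type and a knock-in cluster.

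S1pr5, the receptor known from myelinating oligodendrocytes and natural killer cells, lies on the minus strand of chromosome 9, 21242912 to 21248443. It was at 74.6, 125, 98.9 and 109 CPM in WT-NCD libraries 4, 5, 11 and 12, and at 100.9, 129, 118 and 119 CPM in WT-HFD libraries 2, 3, 15 and 16. App-NCD libraries 537, 538, 545 and 553 had 78.9, 87.1, 116 and 66.6 CPM, and App-HFD libraries 547, 559, 560 and 561 had 121, 81.1, 142 and 137 CPM. All groups overlapped. In edgeR the genotype differences without App-NCD 553 were -0.15 ± 0.198 for control-diet mice (adjusted p = 0.647) and 0.02 ± 0.183 for high-fat mice (adjusted p = 0.949). The diet differences were 0.19 ± 0.183 in wild type (adjusted p = 0.966) and 0.36 ± 0.199 in the knock-in (adjusted p = 0.758). With all 16 libraries the 4 values were -0.23 ± 0.206, 0.04 ± 0.206, 0.19 ± 0.206 and 0.47 ± 0.207 (edgeR adjusted p = 0.496, 0.972, 1 and 0.408). Per 1000 CPM of mature oligodendrocyte markers S1pr5 was at 2.36 ± 0.263 CPM in WT-NCD, 2.56 ± 0.246 in WT-HFD, 2.597 ± 0.237 in App-NCD (n = 3, without 553) and 2.79 ± 0.490 in App-HFD (SD, n = 4 elsewhere). The genes most like it were Pex5l (r = 0.927) and Map7 (r = 0.927), the latter a microtubule-binding protein, and AA986860 (r = 0.920).

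S1pr2 encodes another of the G protein-coupled receptors for S1P, on the minus strand of chromosome 9, 20962361 to 20976781. It was low, at 26 to 1068 counts per library. WT-HFD libraries 2, 3, 15 and 16 had 3.64, 4.07, 4.10 and 4.68 CPM, and App-HFD libraries 547, 559, 560 and 561 had 5.34, 6.27, 5.62 and 6.26 CPM. WT-NCD libraries had 3.00 to 4.97 CPM and App-NCD libraries 4.76 to 5.87 CPM, with 0.738 CPM in 553. The groups did not overlap on the high-fat diet and overlapped on the control diet. Without App-NCD 553, S1pr2 rose on the high-fat diet by 0.49 ± 0.152 on the log2 scale (SE, edgeR adjusted p = 0.0339, 1.40-fold), and had 0.33 ± 0.163 (adjusted p = 0.180) on the control diet. With 16 libraries the high-fat value was 0.51 ± 0.395 (edgeR adjusted p = 0.612), although App-NCD 553 is in neither of the groups compared. The biological coefficient of variation, 1 estimate for all groups, was 36.5% with it and 26.3% without it. With only the 2 groups compared in the fit, S1pr2 had 0.46 (edgeR adjusted p = 0.0224). Without App-NCD 553, the call was not reached with library totals alone, with no filter on low counts, or when a further library was left out (WT-HFD 2, 3 or 15, or App-HFD 559 or 561), with a highest adjusted p of 0.0949 over all fits without App-NCD 553. The microglial markers given beside Sgpl1 moved with it as well, and their part was not tested. The genes most like S1pr2 were Dyrk1a (r = 0.933), a kinase, Sppl3 (r = 0.928), an intramembrane protease, and Ctns (r = 0.923), the lysosomal cystine exporter.

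S1pr3 encodes a receptor of vessel walls and astrocytes, on the plus strand of chromosome 13, 51408639 to 51422797. WT-NCD libraries 4, 5, 11 and 12 had 5.78, 4.35, 4.59 and 6.72 CPM, and App-NCD libraries 537, 538, 545 and 553 had 3.32, 3.26, 3.87 and 1.22 CPM. WT-HFD libraries 2, 3, 15 and 16 had 3.42, 7.80, 6.86 and 5.81 CPM, and App-HFD libraries ran from 3.82 to 4.55 CPM. Knock-in libraries were below wild type without overlap on the control diet, and on the high-fat diet all but WT-HFD 2 were above the knock-in. EdgeR gave -0.87 ± 0.309 for control-diet mice (SE, adjusted p = 0.0914) and -0.57 ± 0.307 for high-fat mice (adjusted p = 0.375). Without App-NCD 553 these were -0.65 ± 0.229 (adjusted p = 0.0616) and -0.59 ± 0.210 (adjusted p = 0.0637), which DESeq2 called (adjusted p = 0.0372 and 0.0303).

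Endothelial markers were lower in the knock-in as well, though their summed level overlapped between the genotypes on each diet. Of 12 such markers, 7 fell on the control diet and 4 on the high-fat diet without App-NCD 553, among them the adhesion molecule Pecam1 (-0.78 ± 0.240 and -0.92 ± 0.220). Of 8 pericyte and smooth muscle markers, 7 and 3 fell. With all 16 libraries, 4 and 1 of the endothelial and 3 and 1 of the pericyte and smooth muscle markers fell. Of all genes, edgeR called 17.5% and 19.3% in either direction without App-NCD 553, and 8.39% and 7.14% with all 16 libraries. WT-HFD 2, the wild-type library with the lowest S1pr3, had the lowest endothelial level of the wild-type libraries, 215 CPM. WT-NCD 5, at 219 CPM of endothelial markers, was below all but 1 of the knock-in libraries in that sum and above every App-NCD library in S1pr3. Choroid plexus and ependyma markers moved with genotype too. Their sum was 24280 to 29890 CPM in WT-NCD and 8912 to 20870 in App-NCD, and 17600 to 35970 in WT-HFD and 7014 to 14640 in App-HFD. Of these 5 markers, 4 fell on the high-fat diet without App-NCD 553 and 3 with all 16 libraries. On the control diet 0 of the 5 were called, with or without App-NCD 553. Per 1000 CPM of endothelial markers S1pr3 was at 15.8 ± 3.08 CPM in WT-NCD, 16.6 ± 0.732 in WT-HFD, 15.2 ± 2.89 in App-NCD (n = 3, without 553) and 15.0 ± 0.666 in App-HFD (SD, n = 4 elsewhere). No listed endothelial or pericyte marker was at 0 throughout a group, and the part of these cells in the S1pr3 values was not tested. The genes most like S1pr3 were Degs2 (r = 0.936), a sphingolipid desaturase and hydroxylase, Clic5 (r = 0.933) and Podxl (r = 0.933), a surface sialomucin of endothelium and podocytes.

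Of the kinases, Sphk2, the form found mainly in the nucleus and at internal membranes, carried nearly all of the signal. It lies on the minus strand of chromosome 7, 45709467 to 45718002, and had 34.3 to 42.2 CPM in WT-NCD, 31.9 to 37.6 in WT-HFD, 31.4 to 40.1 in App-NCD without 553 and 36.8 to 41.3 in App-HFD. App-NCD 553 had 7.16 CPM. Without it, the differences for genotype and diet ran from -0.08 to 0.13 on the log2 scale, with SE of at most 0.102, and with it from -0.37 to 0.44, and none was called by edgeR. Its exons share 539 bases with Dbp and 373 with Rpl18 on the opposite strand. Sphk1, the cytosolic form that growth factors activate, lies on the plus strand of chromosome 11, 116530925 to 116536674, and had only 16 to 137 counts per library, with 0 in App-NCD 553, where 3 counts would be 0.0852 CPM. The 15 other libraries lay between 0.155 and 0.615 CPM. Without App-NCD 553 its log2 fold changes for genotype and diet had SE of 0.389 to 0.429, and with it 0.617 to 0.632, and edgeR called none of them.

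Sgpp1 encodes the phosphatase that returns S1P to sphingosine, on the minus strand of chromosome 12, 75714249 to 75735729. Outside App-NCD 553 it varied little, at 64.2 to 82.7 CPM in 15 libraries. WT-NCD libraries ran from 71.2 to 77.7 CPM, WT-HFD from 73.7 to 81.0, App-NCD without 553 from 78.7 to 80.8 and App-HFD from 64.2 to 82.7 CPM. App-NCD 553 had 396 CPM, 4.97 times the mean of the other App-NCD libraries. The genotype difference on the control diet was 1.09 ± 0.413 on the log2 scale with it (SE, edgeR adjusted p = 0.111) and 0.07 ± 0.0842 without it (adjusted p = 0.634). The corresponding diet difference in the knock-in went from -1.06 ± 0.413 (adjusted p = 0.392) to -0.06 ± 0.0843 (adjusted p = 0.945). The genes most like Sphk2 and Sgpp1 were Psrc1 (r = 0.937) and Ap3s1 (r = 0.833), and for Sphk1 it was Phyhd1 (r = 0.833). Sgpp1 was the only member above the range of the other 15 libraries in App-NCD 553, 7 members were below it and S1pr1 was inside it.

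Related genes were read from lists of other S1P enzymes, carriers and receptors, of ceramide and sphingosine supply, and of receptor coupling. Sphingosine comes from ceramide by ceramidases, and without App-NCD 553 the ceramidase genes Asah1, the lysosomal acid form, and Acer3, an alkaline form, rose in the knock-in on both diets. Asah1 rose by 0.64 ± 0.120 and 0.67 ± 0.112 on the log2 scale (SE, edgeR adjusted p = 0.00212 and 0.000694), from a mean of 150 CPM in WT-NCD to 239 in App-NCD. Acer3 rose by 0.84 ± 0.157 and 0.76 ± 0.147 (adjusted p = 0.00204 and 0.00198), from 30.8 CPM in WT-NCD to 56.0 in App-NCD. Ceramide synthases went both ways. Cers6, which prefers shorter fatty acids, rose by 1.20 ± 0.200 and 0.96 ± 0.189 (adjusted p = 0.000797 and 0.00225). Cers4 fell by 0.70 and 0.76 on the log2 scale (SE 0.158 and 0.145, adjusted p = 0.00727 and 0.00193). Cers1 and Cers5 fell on the control diet. Cers2, the main very-long-chain form of myelin, was at 397 to 473 CPM in the group means and was not called. Cerk, which phosphorylates ceramide, rose on both diets (0.38 ± 0.0794 and 0.59 ± 0.0741, adjusted p = 0.00446 and 6.3e-05). On the high-fat diet Asah2, the neutral ceramidase, and Degs2 fell as well.

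Of 13 supply genes tested, 4 rose and 3 fell on each diet without App-NCD 553 (medians -0.08 and -0.07), and 3 rose and 1 fell, then 3 rose and 0 fell, with all 16 libraries. Beside this list and those below, edgeR called 17.5% and 19.3% of all genes without App-NCD 553. With all 16 libraries it called 8.39% and 7.14%. Asah1, Acer3 and Cers6 rose on both diets also with all 16 libraries, whereas Cers4 (-0.31 and -0.73) and Cerk (0.17 and 0.61) were then not called. Of 9 other S1P enzymes, carriers and receptors only Sgpp2, the second S1P phosphatase, passed, with -1.18 ± 0.281 on the high-fat diet (edgeR adjusted p = 0.00799), from a mean of 10.4 CPM in WT-HFD to 4.64 in App-HFD. Plpp3, a lipid phosphate phosphatase at 536 CPM in WT-NCD and 346 CPM in App-NCD without 553, was not called. Of 17 coupling and control genes, 1 rose and 2 fell on the control diet and 2 rose and 2 fell on the high-fat diet without App-NCD 553, a share near that of all genes (17.5% and 19.3%), and with all 16 libraries only Arrb2 on the high-fat diet passed. The β-arrestin Arrb2, which takes receptors off the surface, rose by 0.64 ± 0.186 and 0.79 ± 0.174 (adjusted p = 0.0289 and 0.00495). The G protein subunits Gnai1 and Gna11 fell on both diets, by 0.37 and 0.44 on the control diet and by 0.40 and 0.27 on the high-fat diet on the log2 scale. Stat3 rose on the high-fat diet (0.32 ± 0.0786, adjusted p = 0.00905). None of the listed genes was called for diet or for the interaction by edgeR, with or without App-NCD 553. The microglial, astrocyte, vascular and choroid plexus markers given above differed between the same groups, and their part in these differences was not tested.

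**Figure D4:**
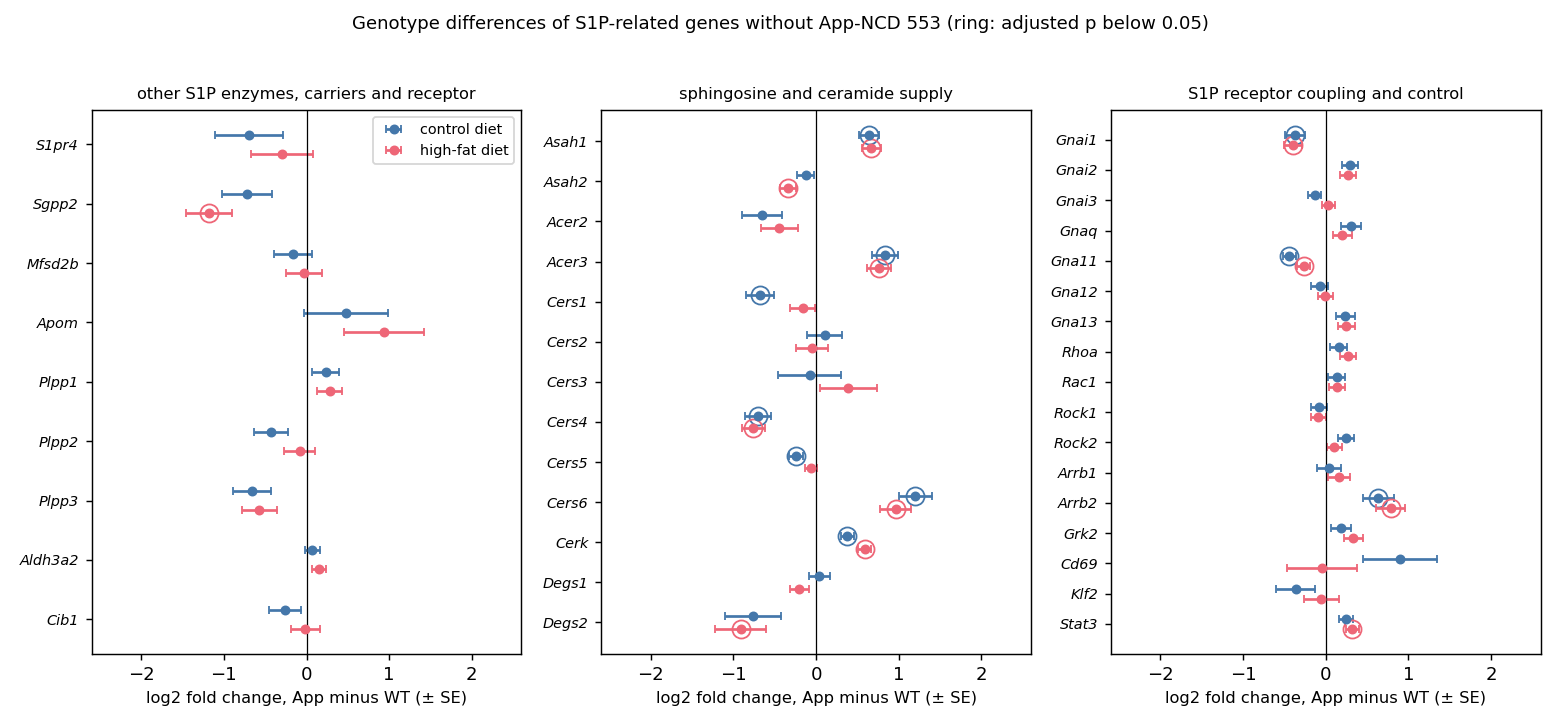
Log2 fold change with its SE (horizontal axes) for App minus WT on the control diet (blue) and the high-fat diet (red), from edgeR without App-NCD 553, for the tested genes of 3 lists; rings mark an adjusted p below 0.05. Rings lie to the right at Asah1, Acer3, Cers6, Cerk and Arrb2 on both diets, and to the left at Cers4, Gnai1 and Gna11.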

How the data were processed

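The deposited table held estimated counts per gene and library, which per the submitters' processing notes came from reads handled with fastp 0.23.2, HISAT2 2.2.1 and StringTie 2.2.1 on mm10 (bedtools 2.25.0 was also named); for the annotation and strand setting, they are not given in the sources used here. Each value was a whole number. Of the gene IDs, 99.7% were in GENCODE mouse release 21, which gave coordinates and exon lengths. Genes were filtered with filterByExpr, scaled by TMM and tested with edgeR 4.0.16 (quasi-likelihood, robust, limma 3.58.1, R 4.3.3) on 16 libraries in 4 groups, leaving 12 residual degrees of freedom; p-values were adjusted over all genes by Benjamini-Hochberg, and the procedure was tested on simulated data. SE derive from the log2 fold change and F value. Correlations used log2 CPM with a prior count of 0.5 and genes of at least 1 mean CPM. No replicate number occurs in 2 groups, so nothing was paired. Itgam, a marker with 2 IDs, used the ID with more counts. The members and lists were chosen with earlier results of these data known. Named genes are the 9 members, called genes of each list (up to 8 per comparison), the 3 genes most like each member, and markers that moved with one. Not all are printed. Alternatives were DESeq2 1.42.0, RLE factors, library totals, scaling to mature oligodendrocyte markers, other filters, only the 2 groups compared, and each library left out. Their combination with leaving out App-NCD 553, and levels per marker list, were chosen after seeing the data.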

Additional observations from a re-analysis of the deposited data

Results flagged for a closer look

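Within the groups of 4 libraries, 5 of 36 member and group pairs held a library whose gap to the nearest other, as a share of the range, exceeded Dixon's critical value; chance flags about 1 in 20 such pairs. App-NCD 553 was such a library for Sgpl1, at 58.7 CPM against 193 to 201 CPM in the other App-NCD libraries, for Sgpp1, at 396 CPM against 78.7 to 80.8, and for Spns2, at 67.1 CPM against 86.2 to 89.3. WT-HFD 2 was low for Spns2, at 113 CPM against 135 to 138 in the other WT-HFD libraries. App-HFD 560 was high for S1pr3, at 4.55 CPM against 3.81 to 3.93 in the other App-HFD libraries.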

How the results depend on the processing

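With all 16 libraries no member was called by edgeR in any comparison, and the counts below are members called out of 9. DESeq2 with all 16 libraries gave no adjusted p for Sgpp1, so its counts there leave Sgpp1 out. For genotype on the control diet, scaling to mature oligodendrocyte markers gave 2 (Sgpl1 and Sgpp1) and DESeq2 gave 2, and leaving out 1 library gave 0 to 1, the 1 being without App-NCD 553. With App-NCD 553 left out, a set of fits chosen after seeing the data apart from the plain one, this count was 1 with RLE factors, 3 with library totals, 1 with the oligodendrocyte scaling, 1 with no filter, 1 with at least 10 counts in every library, 2 with DESeq2 and 1 with only the groups compared, and 1 to 2 with a further library left out. For genotype on the high-fat diet it was 1 with the oligodendrocyte scaling, 1 with at least 10 counts in every library, 1 with DESeq2, 3 with only the groups compared and 0 to 2 with 1 library left out, the 2 being without App-NCD 553. With App-NCD 553 left out it was 2, 2, 2, 1, 2, 3 and 3 in the same order of settings as above, and 1 to 3 with a further library left out. With all 16 libraries the calls over all genes moved too. For genotype on the control diet there were 1826 of 21768 genes as reported, 3248 with the oligodendrocyte scaling and 841 with library totals. DESeq2 called 3398 of 21360 there, and the fit with only the groups compared 505 of 20490. On the high-fat diet these were 1554, 1099, 1176, 2508 of 21360 and 4816 of 20374, and 1702 of 15463 with at least 10 counts in every library. For diet in the knock-in the count of members was 1 (Spns2) with DESeq2, with and without App-NCD 553, beside 83 of 20515 and 112 of 17911 genes. It was 0 to 1 when a further library was left out beside App-NCD 553, the 1 being without WT-HFD 2 or App-HFD 559. Sgpl1 was called in 23 of 23 fits without App-NCD 553 on both diets, and in 1 and 4 of 23 with it. S1pr2 on the high-fat diet was called in 16 of 23 and 1 of 23. Each set of 23 holds the plain edgeR fit beside the alternatives. Of 2002 member values under alternatives, 1915 kept their side of the threshold and 87 passed it newly. The 1915 include the DESeq2 values of Sgpp1 with 16 libraries, which have no adjusted p. No called value changed direction, and the sign of 153 uncalled values changed. With all libraries, scaling by library totals moved the median of all genes to -0.29 for genotype on the control diet and 0.21 for diet in the knock-in, and the oligodendrocyte scaling moved it to 0.38 and -0.23. Sphk1 could not be fitted with at least 10 counts in every library, since App-NCD 553 has 0. The cause of these changes was not tested. Low counts limit Sphk1, S1pr2 and S1pr3. No paired analysis was possible because the groups share no replicate number.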
